A study of Mus musculus with 6 samples.

Results

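The 27 genes described here make up the cholesterol biosynthesis module of the mouse and the machinery that switches it on and off. They comprise 19 enzymes that build cholesterol, 4 genes of the sterol sensor, the sterol carrier Stard4, and 3 genes driven by the liver X receptors (LXR) when sterol is plentiful. Each was taken by its symbol from the deposited table of read counts, where a locus can carry several symbols, and 27 of 27 were found among 53103 named loci of 59699 in all. The data are RNA sequencing of adrenal glands from 30-week-old females of a 129 sv X CD1 cross, in 3 wild-type (WT) libraries and 3 libraries of the genotype Armc5(-/-), written KO here. Both groups share the sex, age, background and tissue, no other allele or agent is given, and the labels do not say which stretch of Armc5 was removed. The labels number the samples 1 to 3 in each group and are silent on whether these are different animals, so a p-value here speaks of the scatter among the 6 libraries, which may be technical.

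The adrenal cortex makes steroid hormones from cholesterol, which its cells import from lipoproteins, release from stored esters or synthesise from acetyl-CoA. Synthesis runs through mevalonate to squalene, closes the ring at lanosterol, and trims lanosterol to cholesterol. When the membrane of the endoplasmic reticulum is poor in sterol, Scap escorts the transcription factor SREBP2, the product of Srebf2, to the Golgi to be cleaved, and the freed factor enters the nucleus and activates the synthesis genes. When sterol is rich, Insig proteins hold Scap back, and oxysterols activate LXR, whose targets export cholesterol and lower its uptake. SREBP2 binds sterol response elements and works together with NF-Y, which binds the CCAAT box, and with Sp1, which binds GC boxes.

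The promoters of the members were searched for the binding motifs of these factors and of LXR. RefSeq windows (build GRCm38.p6, 250 bases before to 50 after the start) were held for 22 members, with none for Fdps, Fdft1, Sqle, Stard4 and Abcg1. In the stretches printed here, of 250 bases before the start and 5′ to 3′ on the gene's strand, capitals mark CCAAT on either strand (ATTGG where it lies on the other strand) and the sterol response core TCACNCCAC. Hmgcs1 (chr13:119690101-119690350, plus strand) is shown as the member that held that core, Mvd (chr8:122443423-122443672, minus strand) and Sc5d (chr9:42264301-42264550, minus strand) as enzymes early and late in the pathway, Pmvk (chr3:89454291-89454540, plus strand) as the enzyme with the smallest p between genotypes, and Abca1 (chr4:53159896-53160145, minus strand) as an LXR target without either motif.
Hmgcs1: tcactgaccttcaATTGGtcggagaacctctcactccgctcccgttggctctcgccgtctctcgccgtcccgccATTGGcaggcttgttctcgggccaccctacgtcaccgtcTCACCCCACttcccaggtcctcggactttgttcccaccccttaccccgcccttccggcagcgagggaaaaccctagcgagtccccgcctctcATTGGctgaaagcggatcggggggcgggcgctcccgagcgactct
Mvd: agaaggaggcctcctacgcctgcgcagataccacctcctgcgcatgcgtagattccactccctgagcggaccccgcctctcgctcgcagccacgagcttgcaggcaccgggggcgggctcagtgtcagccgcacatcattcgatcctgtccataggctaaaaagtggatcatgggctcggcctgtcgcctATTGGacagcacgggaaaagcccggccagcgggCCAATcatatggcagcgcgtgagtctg
Sc5d: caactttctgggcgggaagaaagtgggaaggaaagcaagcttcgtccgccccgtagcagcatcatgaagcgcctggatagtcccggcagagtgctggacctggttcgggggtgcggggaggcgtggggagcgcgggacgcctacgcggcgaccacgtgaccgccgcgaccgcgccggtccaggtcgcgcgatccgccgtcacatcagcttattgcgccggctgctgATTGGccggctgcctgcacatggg
Pmvk: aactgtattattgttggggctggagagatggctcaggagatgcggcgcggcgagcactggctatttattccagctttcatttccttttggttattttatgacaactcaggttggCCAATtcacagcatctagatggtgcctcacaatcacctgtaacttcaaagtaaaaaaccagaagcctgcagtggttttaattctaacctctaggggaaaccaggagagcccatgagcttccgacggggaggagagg
Abca1: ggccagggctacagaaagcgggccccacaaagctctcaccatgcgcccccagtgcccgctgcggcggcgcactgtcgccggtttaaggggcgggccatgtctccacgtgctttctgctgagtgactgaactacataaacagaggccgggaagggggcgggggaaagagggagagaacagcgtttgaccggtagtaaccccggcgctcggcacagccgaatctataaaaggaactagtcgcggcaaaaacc

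CCAAT occurred in the windows of 19 of 22 members (86.4%), against 42.3% of 13350 tested genes with a window and 41.1% of all 27025 genes in the table. Those 19 members held 43 matches, 37 of them within 200 bases before the start, and 12 members held 2 or more. The 3 members with a window and no match were Abca1, Acat2 and Scap. Mylip, the other LXR target with a window, held 3 matches, so the motif did not set the LXR targets apart. The GC box GGGCGG was in 20 of 22 members (90.9%), against 62.7% of tested genes. TCACNCCAC was in 1 of 22 (Hmgcs1), against 1.5% of tested genes, and that core with an A before it was in 0 of 22. The E-box CACGTG, an alternative site for SREBP proteins, was in 6 of 22 (27.3%, against 10.8%), and the LXR element, AGGTCA repeated after a gap of 4 bases, was in 0 of 22. All letters were searched on both strands; a match is a description of the window and no measure of binding.

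**Figure D1:**
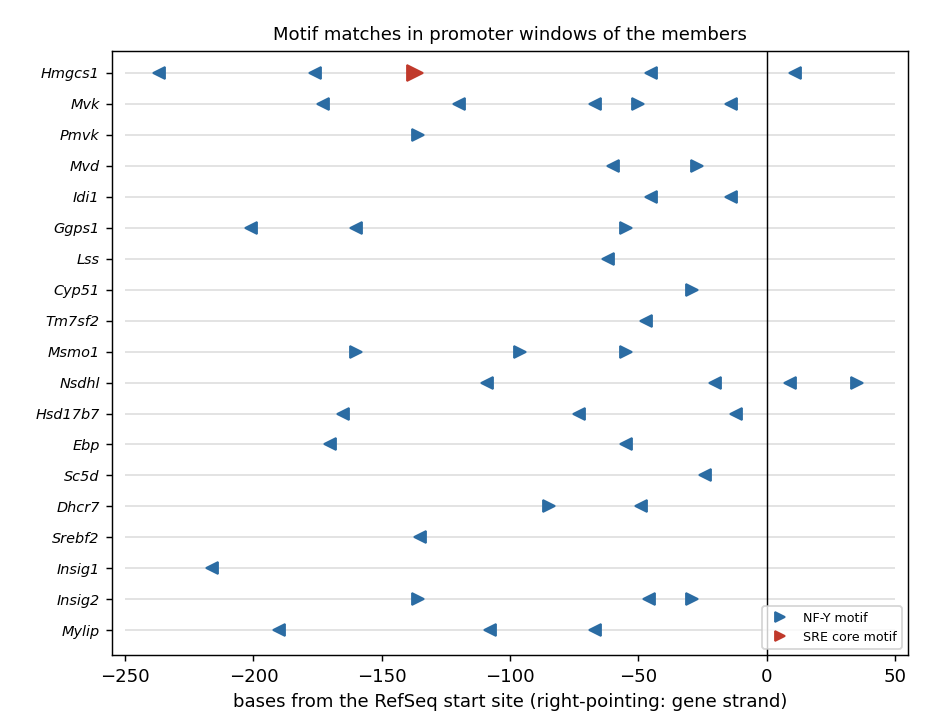
Positions of CCAAT (NF-Y motif, blue) and TCACNCCAC (SRE core motif, red) in the RefSeq windows of the 19 members with a match, one gene a line. The horizontal axis is the distance in bases from the start site, with the gene's strand to the right; 37 of 43 CCAAT matches lie within 200 bases before the start.

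The libraries held 70547288 to 130573434 counts, and the member with the fewest, Pmvk, had 1945 over all 6. Levels are given as CPM, counts scaled to a common library size by TMM factors. Armc5 itself measured 27.3, 25.3 and 27.8 CPM in WT libraries 1 to 3 and 3.58, 3.53 and 3.66 in KO libraries 1 to 3 (log2 fold change -2.90, SE 0.10, edgeR adjusted p = 0.00041), which fits the labels. All 8 fixed markers of adrenal cortex were measured. They summed to 28800 to 50200 CPM in WT and 24500 to 25900 in KO. With TMM scaling all 8 had a negative fitted difference (median log2 fold change -0.42), against 50.7% of tested loci. The edgeR test called 0 of 8, against 1.84% of tested loci. The 7 markers of chromaffin cells, which make up the medulla, summed to 1830 to 2610 CPM in WT and 3740 to 4150 in KO. Of these, 2 of 7 were higher in KO at an adjusted p under 0.05 (edgeR), against 1.41% of tested loci. Some libraries stood apart. KO library 3 held 3350 CPM of 7 tested hepatocyte markers, against 17.5 to 61.7 in the other 5 libraries. Of the 8 listed, Fgb did not pass the count filter and has no CPM. The 9 macrophage markers summed to 1870 and 915 CPM in WT libraries 2 and 3, against 171 to 209 in the other 4. Gpnmb alone held 1420 and 599 of those 1870 and 915 CPM. In these bulk samples, fewer cells of a type and less RNA per cell cannot be told apart. The part of cell makeup in the values of the members was not tested.

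None of the 27 members differed between KO and WT by the main test. edgeR's quasi-likelihood test called 0 of 27 at an adjusted p under 0.05, where it called 1.84% of the 21358 loci tested (301 higher in KO, 1.41%, and 92 lower, 0.431%). At an unadjusted p under 0.05 the count was 1 of 27 (Pmvk), against 22.2% of all tested loci, and DESeq2 called 1 of 27, again Pmvk, against 12.3%. The lowest KO library lay above the highest WT library for Pmvk, and the highest KO library below the lowest WT library for Srebf2; the other 25 overlapped, where 30.5% of tested loci did not. The fitted difference was positive for 9 members and negative for 18, with a median log2 fold change of -0.03 (all tested loci -0.01, of which 50.7% were negative) and a range of -1.21 to 0.83. The 95% interval of the log2 fold change lay between -1 and 1 for 19 members and reached past one of those bounds for 8, so a difference of 1 log2 unit was not excluded for those 8.

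**Figure D2:**
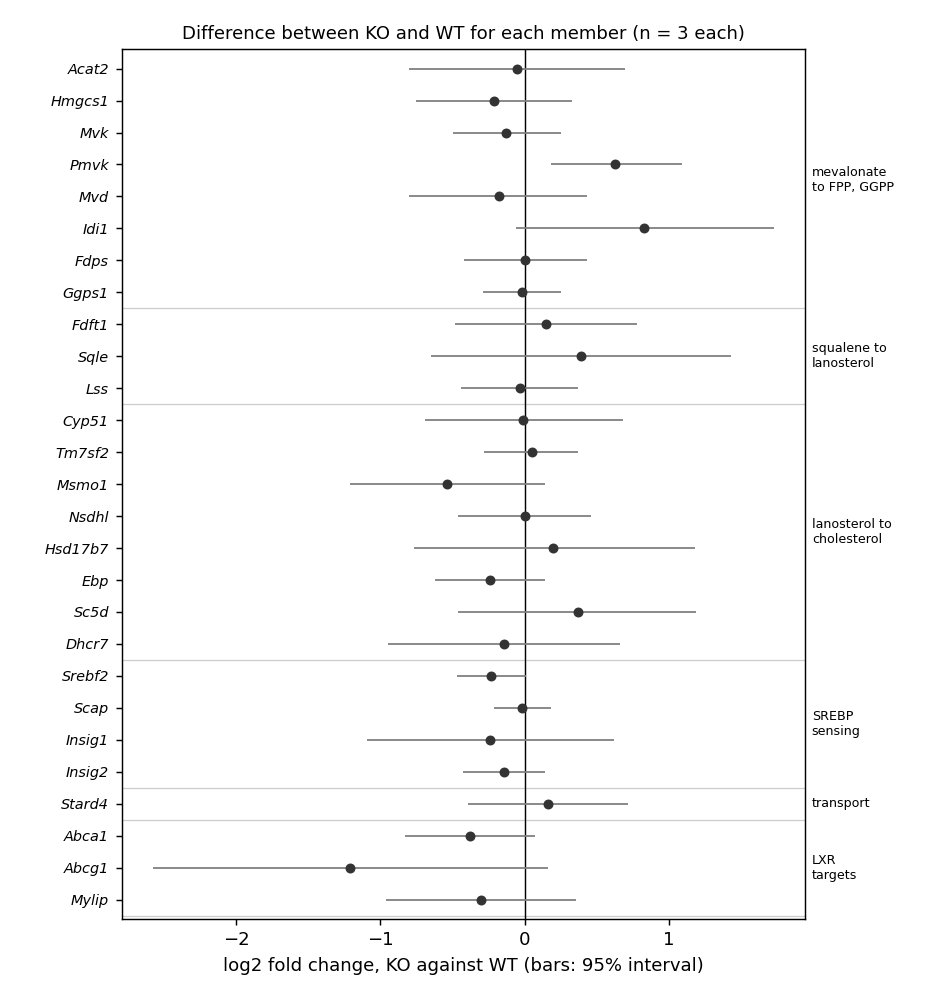
Fitted log2 fold change of KO against WT for each of the 27 members, with its 95% interval, grouped by role. Values run from -1.21 for Abcg1 to 0.83 for Idi1, and the interval of Pmvk (0.18 to 1.09) lies above 0 before adjustment for the number of loci tested.

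Levels between genes were compared per kilobase of the deposited gene length, in WT. Abca1 stood first at 93.9 ± 21.3 CPM per kilobase (SD, n = 3) and Dhcr7 second at 86.7 ± 41.3, a gap smaller than either spread. The locus of Scap, merged and longer than the gene, followed at 22.0 ± 0.67 and Sc5d at 14 ± 3.26. Srebf2, Hmgcs1, Msmo1, Abcg1 and Insig2 lay between 10.9 and 9.23 CPM per kilobase, apart by less than the spread of Abcg1 alone (SD 7.30). The locus of Hmgcs1 is also longer than the gene. Pmvk was lowest at 0.644 ± 0.117.

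**Figure D3:**
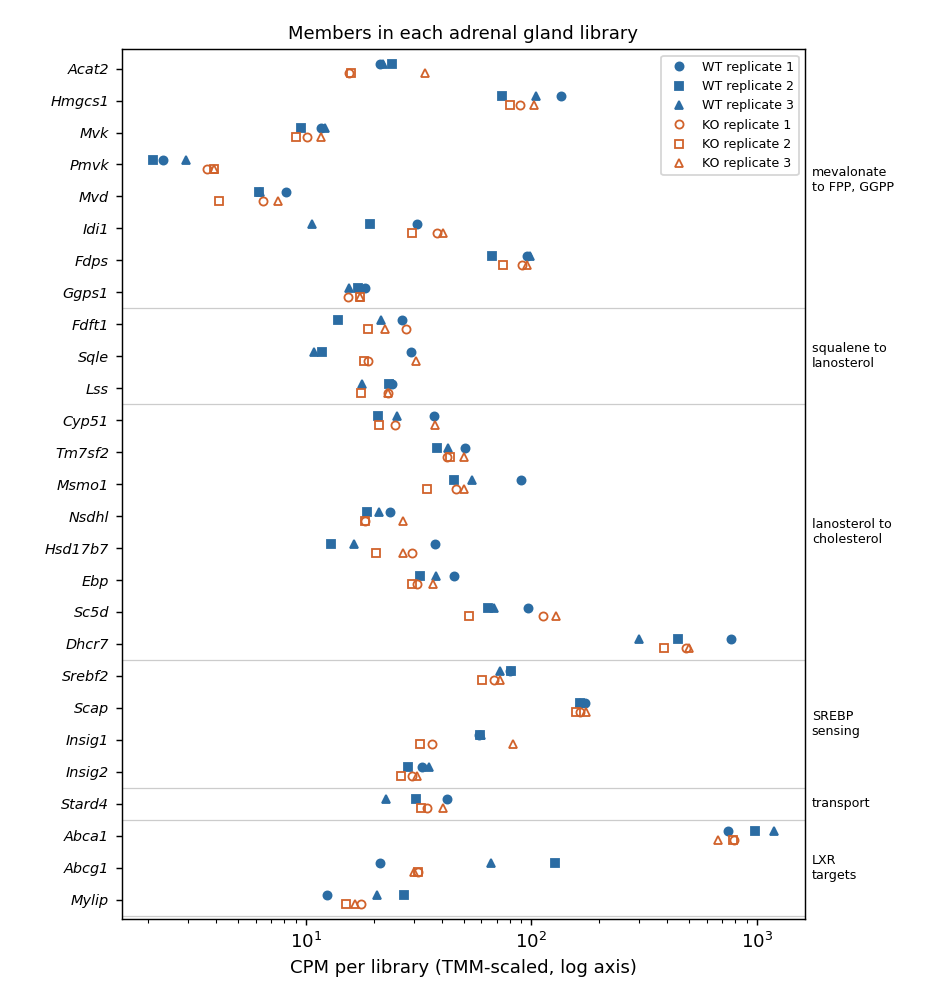
CPM of every member in each of the 6 libraries on a log axis, one gene a line, with WT and KO libraries marked separately. Dhcr7 and Abca1 lie highest and Pmvk lowest, and the WT and KO points separate for Pmvk and Srebf2.

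The mevalonate stage has 8 members here, of which 0 passed the test, 3 had a positive fitted difference and 5 a negative one (median -0.03). Pmvk, phosphomevalonate kinase, measured 2.32, 2.09 and 2.95 CPM in WT libraries 1 to 3 and 3.65, 3.89 and 3.90 in KO libraries 1 to 3. These are small counts, 235, 270 and 237 reads against 403, 296 and 504. All KO libraries lay above all WT libraries, as they did for 16.3% of tested loci. The fitted log2 difference was 0.63 (SE 0.19, edgeR adjusted p = 0.131, DESeq2 adjusted p = 0.016). Its locus (chr3:89454541-89469013, GRCm38) overlaps that of Pbxip1 on the same strand, which held 29149 counts over the 6 libraries against 1945 for Pmvk. Pbxip1 measured 45.1 ± 9.07 CPM in WT and 45.9 ± 6.29 in KO (mean ± SD, n = 3), and how reads shared by both were counted is not given in the sources used here.

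Idi1, the isomerase that makes dimethylallyl diphosphate, had the largest positive difference of the members. It measured 31.0, 19.2 and 10.6 CPM in WT and 38.1, 29.5 and 40.6 in KO (log2 fold change 0.83, SE 0.37, edgeR adjusted p = 0.251). WT library 1 lay above KO library 2, so the groups overlapped. Without WT library 1 the log2 fold change was 1.27 (edgeR adjusted p = 0.0966), and without WT library 3 it was 0.52.

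Hmgcs1, the synthase that makes HMG-CoA, measured 135, 74.2 and 105 CPM in WT and 88.7, 80.7 and 103 in KO. WT held both the highest and the lowest library (log2 fold change -0.21, SE 0.22, edgeR adjusted p = 0.617). The counted locus ends at 119882497 on chromosome 13, where GENCODE M21 ends Hmgcs1 at 119708260. It spans other genes, among them Zfp131 on the other strand (17652 counts), so its level may not be of Hmgcs1 alone. Of the others in the stage, Fdps, which makes farnesyl diphosphate, measured 86.9 ± 17.6 CPM in WT and 87.2 ± 10.9 in KO (mean ± SD, n = 3). Ggps1, which lengthens that product for protein prenylation, measured 16.9 ± 1.39 and 16.7 ± 1.18. Both differences were within 0.02 log2 units of 0. Acat2, the cytosolic thiolase at the head of the pathway, measured 22.4 ± 1.37 CPM in WT and 21.6 ± 10.4 in KO, where library 3 (33.6) stood above libraries 1 and 2 (15.5 and 15.8). Mevalonate kinase, Mvk, measured 11.2 ± 1.45 and 10.2 ± 1.30 CPM (log2 fold change -0.13, and -0.23 to -0.04 with 1 library left out), and the decarboxylase Mvd 6.85 ± 1.15 and 6.03 ± 1.75. The loci of Fdps and Acat2 are merged with other genes (Fdps with Gm43738 and Rusc1, Acat2 with Acat3 and Pnldc1), so their counts are not of 1 gene. Loci on the other strand with more counts overlap Acat2 (Tcp1), Mvk, Mvd and Ggps1, and whether the counting used strand is not given in the sources used here.

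Squalene and lanosterol are made by 3 members, of which 0 passed the test. Sqle, the epoxidase that is one of the pathway's slow steps, measured 29.1, 11.8 and 10.9 CPM in WT and 18.9, 18.0 and 30.9 in KO. The highest library of each group lay near 30 CPM, and the rest of KO lay between the WT values (log2 fold change 0.39, SE 0.43, edgeR adjusted p = 0.630). Leaving out 1 library moved its log2 fold change both ways, to 0.99 without WT library 1 (edgeR adjusted p = 0.128) and to 0.19, 0.15 and 0.10 without WT library 2, WT library 3 and KO library 3. Fdft1, squalene synthase, measured 20.7 ± 6.47 CPM in WT and 23.0 ± 4.46 in KO (mean ± SD, n = 3). Its locus is overlapped on the other strand by Ctsb, which held 889960 counts against 13645. Lss, which closes the ring to lanosterol, measured 21.7 ± 3.51 and 21.2 ± 3.13 CPM.

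From lanosterol to cholesterol there were 8 members, of which 0 passed the test, 3 had a positive and 5 a negative fitted difference. Msmo1, an oxidase that removes methyl groups from the sterol ring, had the largest negative difference of the enzymes. It measured 90.1, 45.3 and 54.7 CPM in WT and 46.4, 34.4 and 50.2 in KO (log2 fold change -0.54, SE 0.28, edgeR adjusted p = 0.310). KO libraries 1 and 3 lay above the lowest WT library, and without WT library 1 the log2 fold change was -0.20. Ebp, the isomerase that moves the ring double bond, measured 45.4, 31.9 and 37.7 CPM in WT and 31.1, 29.6 and 36.6 in KO (log2 fold change -0.24, SE 0.16, edgeR adjusted p = 0.408). KO library 3 lay within the WT range and the other KO libraries just under it. Without WT library 1 its log2 fold change was -0.10. Its locus is merged with Ftsj1 and overlaps Wdr13 on the same strand.

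Sc5d, the desaturase near the end of the pathway, measured 96.6, 63.9 and 68.3 CPM in WT and 112, 53.0 and 129 in KO (log2 fold change 0.37, SE 0.34, edgeR adjusted p = 0.565). KO libraries lay on both sides of the WT range. Its log2 fold change was 0.66 without KO library 2 (edgeR adjusted p = 0.238), 0.57 without WT library 1 and 0.12 without KO library 3. Dhcr7, the reductase of the last step, was the most counted enzyme, with 768, 446 and 299 CPM in WT and 483, 389 and 500 in KO (log2 fold change -0.14, SE 0.33, edgeR adjusted p = 0.840). All 3 KO libraries lay inside the WT range, and without WT library 1 the sign turned (0.29). Hsd17b7, which reduces a ring ketone, measured 37.5, 12.9 and 16.4 CPM in WT and 29.5, 20.5 and 26.9 in KO, again inside the WT range. Cyp51, the lanosterol demethylase, measured 27.8 ± 8.34 CPM in WT and 27.6 ± 8.44 in KO (mean ± SD, n = 3), and Akap9 overlaps it on the other strand with 100495 counts against 17622. Nsdhl, a decarboxylating dehydrogenase, measured 21.1 ± 2.53 and 21.1 ± 5.10, and the reductase Tm7sf2, whose locus is merged with Vps51, Gm28374 and Zfpl1, 43.9 ± 6.41 and 45.4 ± 4.34.

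The 4 genes of the sensor all had a negative fitted difference with TMM scaling (median -0.19, 0 of 4 called). Scaled to total counts the median was 0.04, where the median of all loci was 0.22, and scaled to Rn7sk 0.03, where it was 0.19. Srebf2 measured 80.7, 81.4 and 72.7 CPM in WT and 67.9, 60.2 and 72.2 in KO. The highest KO library lay just under the lowest WT library (log2 fold change -0.23, SE 0.10, edgeR adjusted p = 0.241), as it did for 14.2% of tested loci. Insig2, one of the retention proteins, measured 32.6, 28.2 and 35.3 CPM in WT and 29.6, 26.3 and 31.1 in KO (log2 fold change -0.14, SE 0.12, edgeR adjusted p = 0.516), with overlap. Leaving out 1 library gave -0.21 to -0.07, the smallest without WT library 3.

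Insig1, the retention protein that is itself an SREBP target, was the most even member in WT and the most divided in KO. It measured 58.8, 59.3 and 60.0 CPM in WT and 36.3, 32.2 and 82.5 in KO. KO libraries 1 and 2 lay under every WT library and KO library 3 above every one (log2 fold change -0.24, SE 0.35, edgeR adjusted p = 0.733). Without KO library 3, which carried the hepatocyte markers, the log2 fold change was -0.79 (edgeR adjusted p = 0.0733). Scap, the escort protein, was even in both groups at 167 ± 5.10 and 165 ± 8.19 CPM (SD, n = 3). Its locus is merged with Mir6236, starts at 110281244 on chromosome 9 where GENCODE M21 starts Scap at 110333288, and overlaps Smarcc1 on the same strand (55195 counts against 104654), so its level is not of Scap alone. Stard4, which carries sterol between membranes, measured 31.9 ± 9.86 CPM in WT and 35.8 ± 4.17 in KO.

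The 3 LXR targets had a negative fitted difference under each scaling (median -0.38 with TMM, -0.15 with total counts, -0.20 with Rn7sk), and 0 of 3 passed the test. Abcg1, which passes cholesterol to lipoproteins, measured 21.3, 127 and 66.1 CPM in WT and 31.3, 31.5 and 30.2 in KO (log2 fold change -1.21, SE 0.57, edgeR adjusted p = 0.269). WT library 1 lay under all KO libraries and WT libraries 2 and 3 above them. Its log2 fold change was -1.64 without WT library 1 (edgeR adjusted p = 0.0562) and -0.47 without WT library 2. Abca1, which loads cholesterol onto apolipoprotein A-I, measured 746, 986 and 1190 CPM in WT and 793, 787 and 669 in KO (log2 fold change -0.38, SE 0.19, edgeR adjusted p = 0.289). WT library 1 lay inside the KO range, and WT libraries 2 and 3 lay above it. Without WT library 1 its log2 fold change was -0.54 (edgeR adjusted p = 0.111), and without WT library 3 it was -0.21. Mylip, a ubiquitin ligase that removes the LDL receptor, measured 12.4, 27.1 and 20.7 CPM in WT and 17.5, 15 and 16.5 in KO (log2 fold change -0.30, SE 0.27, edgeR adjusted p = 0.558). Without WT library 2 its log2 fold change was 0.0016, and without WT library 1 it was -0.55.

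The WT libraries in which these 3 genes were high were those with the largest sum of macrophage markers, most of it from Gpnmb. The 9 markers summed to 171, 1870 and 915 CPM in WT libraries 1 to 3 and 174, 209 and 189 in KO libraries 1 to 3, none of the 9 was at 0 in all 6 libraries, and 0 of 9 passed the test. Gpnmb, a glycoprotein of lipid-laden macrophages, measured 1.02, 1420 and 599 CPM in WT and 12.3, 1.79 and 9.0 in KO. Cd68, a lysosomal protein of macrophages, measured 16.1, 169.0 and 79.5 in WT and 14.6, 21 and 17.0 in KO. Adgre1, which encodes the surface marker F4/80, spanned 11.1 to 14 in WT and 9.0 to 11.3 in KO. Mrc1 went the other way, at 31.6, 27.9 and 26.5 CPM in WT libraries 1 to 3, and Csf1r measured 26.0, 49.7 and 27.9. The remaining markers C1qa, C1qb, C1qc and Trem2 were higher in WT libraries 2 and 3 than in WT library 1. The part of these markers in the values of the LXR targets was not tested.

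**Figure D4:**
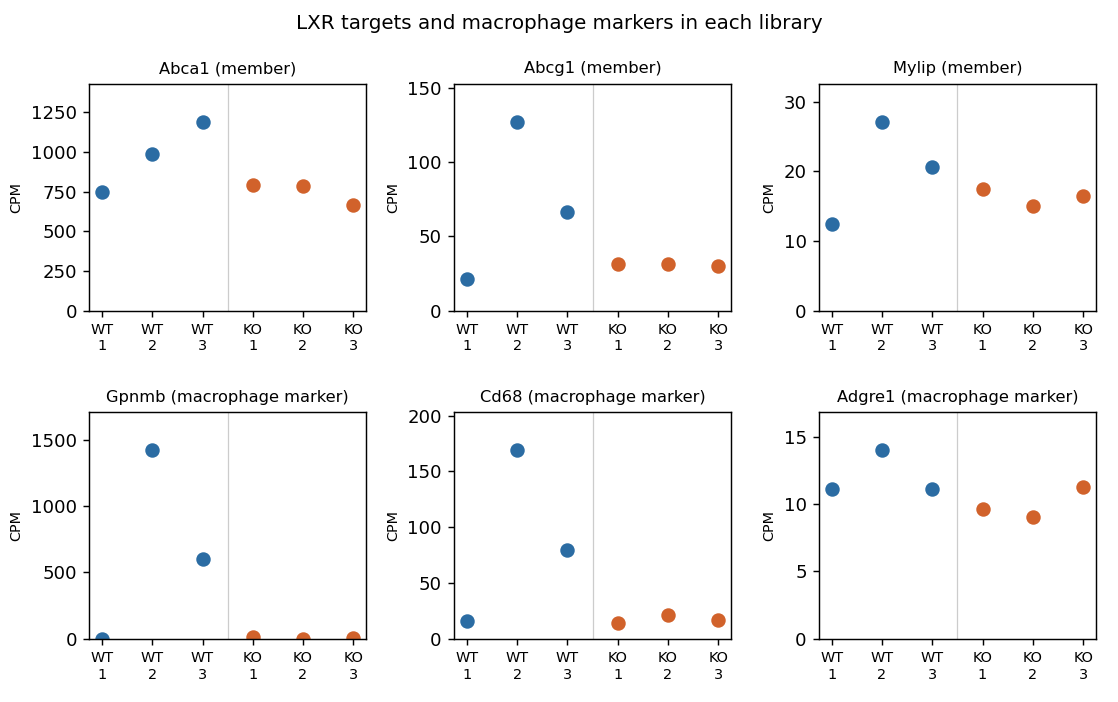
CPM of Abca1, Abcg1 and Mylip (top) and of the macrophage markers Gpnmb, Cd68 and Adgre1 (bottom) in each of the 6 libraries, 1 point a library, on linear axes from 0. WT libraries 2 and 3 hold the highest values of the LXR targets and of Gpnmb (1420 and 599 CPM) and Cd68 (169 and 79.5 CPM), while Adgre1 spans 9.03 to 14 CPM over all 6.

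Within each genotype most enzymes were highest in the same library. WT library 1 was the highest WT library for 15 of 19 enzymes, where it was the highest for 36.4% of all tested loci, and WT library 2 the lowest for 13 of 19 (34.1% of loci). KO library 3 was the highest KO library for 15 of 19 (32.2% of loci) and KO library 2 the lowest for 15 of 19 (35.9%). For the 8 steps from lanosterol to cholesterol, WT library 1 was highest in 8 and KO library 3 in 7, with WT library 2 and KO library 2 each lowest in 7. WT library 1 was highest in 4 of 8 mevalonate members and KO library 3 in 7 of 8, and of the 3 members from squalene to lanosterol WT library 1 was highest in 3, KO library 1 in 2 and KO library 3 in 1. Set against the mean of the 3 WT libraries, the median enzyme deviated by 0.27, -0.22 and -0.09 log2 units in WT libraries 1 to 3 and by -0.04, -0.27 and 0.17 in KO libraries 1 to 3. For each gene the WT deviations sum to 0 by the way they are taken, so only the KO values could have fallen on 1 side. The enzyme median lay above 0 in KO library 3 and below it in KO libraries 1 and 2. The median ratio of highest to lowest library was 1.48 in WT and 1.38 in KO over the 19 enzymes, against 1.32 and 1.21 over 15263 loci of at least 1 CPM.

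**Figure D5:**
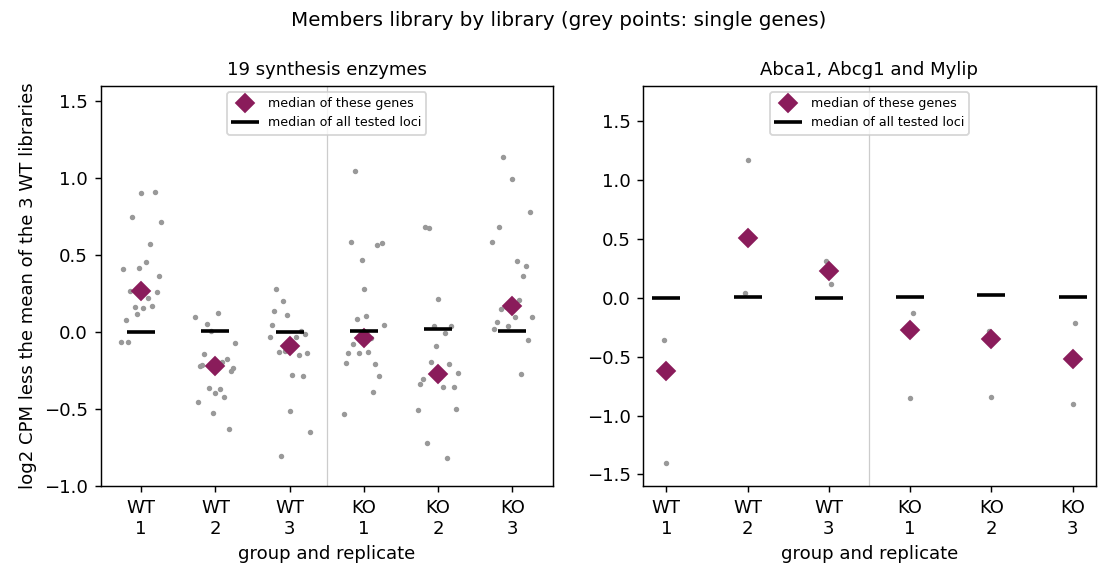
Deviation of log2 CPM from the mean of the 3 WT libraries for the 19 synthesis enzymes (left) and for Abca1, Abcg1 and Mylip (right), by library. Grey points are single genes, diamonds their median and bars the median of all tested loci; the enzyme median is highest in WT library 1 (0.27) and KO library 3 (0.17).

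The LXR targets had another order, with WT library 1 lowest of WT in 3 of 3. Their median deviation was -0.62, 0.51 and 0.23 log2 units in WT libraries 1 to 3 and -0.27, -0.35 and -0.52 in KO libraries 1 to 3. WT library 1, the highest for the enzymes, thus held the fewest LXR target reads of WT, along with the highest cortex marker sum (50200 CPM against 28800 and 39000) and the lowest macrophage marker sum. KO library 3 held the hepatocyte markers, led by albumin (2280 CPM of Alb, against at most 12.7 in the other 5 libraries). The part of either in the enzymes' order was not tested. With WT library 1 and KO library 3 both left out, 0 of 27 members were called and 16 loci in all. At an unadjusted edgeR p under 0.05 the count was then 8 of 27 members. It was 7 of 27 without WT library 1 alone and 1 of 27 in the main fit. The share of all loci at that threshold was 22.2% in the main fit and was not counted for the fits with libraries left out.

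Of 13 tested genes of a second list of synthesis steps and branches, 0 passed and 8 were negative, against 1.84% and 50.7% of tested loci. Their median was -0.01. Those with the smallest p were Nus1 (log2 fold change -0.33, edgeR adjusted p = 0.101, DESeq2 0.0229), Acat1 (log2 fold change -0.21, edgeR adjusted p = 0.189) and Cyb5a (log2 fold change -0.52, edgeR adjusted p = 0.278).

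Among 12 other genes of SREBP processing and its targets, 0 passed the test, against 1.84% of tested loci. A negative difference was fitted for 11 of them (median -0.16), against 50.7% of tested loci. Scaled to total counts, the median was 0.08 with 4 negative, and 10 of 12 lay under the median of all loci, 0.22, as they did with TMM under -0.01. Mbtps2, the protease that makes the second cut in SREBP, measured 75.1, 63.9 and 70.7 CPM in WT and 53.8, 54.5 and 54.5 in KO (log2 fold change -0.36, SE 0.09, edgeR adjusted p = 0.087; DESeq2 0.0143, limma-voom 0.0431). Its locus is merged with Yy2. Srebf1, the sister gene of Srebf2 that mainly drives fatty acid synthesis, measured 135, 113 and 134 CPM in WT and 91.2, 87.8 and 104 in KO (log2 fold change -0.43, SE 0.11, edgeR adjusted p = 0.0997; DESeq2 0.0226, limma-voom 0.0471). All KO libraries lay under all WT libraries for both, as they did for 14.2% of tested loci. Rnf145, a ubiquitin ligase of the sterol sensor, differed by -0.25 log2 units (edgeR adjusted p = 0.231).

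Of 10 other LXR genes 0 passed and 7 were negative, against 1.84% and 50.7% of tested loci (median -0.26, and -0.04 scaled to total counts, under the 0.22 of all loci). Those with the smallest p were Lpcat3 (log2 fold change -0.41, edgeR adjusted p = 0.124, DESeq2 0.0459), Abcg4 (log2 fold change -0.32, edgeR adjusted p = 0.135) and Rxra (log2 fold change -0.24, edgeR adjusted p = 0.279). Of 16 genes of cholesterol supply and use, such as lipoprotein uptake, esters and their release, 1 passed the test, lower in KO, as did 0.431% of tested loci. A negative difference was fitted for 15, against 50.7% of tested loci (median -0.36, and -0.12 scaled to total counts, where all loci had 0.22). The list shares Star, Cyp11a1 and Scarb1 with the markers of adrenal cortex, all 8 of which had a negative difference, so it partly repeats those markers. Nceh1, a hydrolase that frees cholesterol from its esters, fell from 577, 504 and 569 CPM in WT to 364, 336 and 343 in KO (log2 fold change -0.66, SE 0.10, edgeR adjusted p = 0.0396). All KO libraries lay under all WT libraries, as they did for 14.2% of tested loci. The call held in 8 of 16 alternatives, and leaving out 1 library gave adjusted p-values of 0.0327 to 0.155 (edgeR). The summed markers of chromaffin cells were higher, and those of adrenal cortex lower, in the same KO libraries. The part of cell makeup in the level of Nceh1 and of this list was not tested.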

How the data were processed

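Adrenal RNA was read in 6 libraries. The authors deposited whole-number read counts per locus, per the file headers, with log2 values and gene lengths in base pairs. Strand-keeping libraries were made after rRNA removal, per the labels' protocols; Trimmomatic, STAR, Picard, StringTie and edgeR with GRCm38 are named in the submitters' processing notes, with no version or counting program; these are not given in the sources at hand. Unnamed loci (1.392% to 2.045% of counts) were left out. The named loci's counts passed filterByExpr, were scaled with TMM and were tested with edgeR 4.0.16 (quasi-likelihood, robust, two-sided; R 4.3.3), adjusted by Benjamini-Hochberg over 21358 loci and called under 0.05. The script was tested on simulated data. SE is the size of the log2 fold change over the square root of F. The 16 alternatives used limma 3.58.1, DESeq2 1.42.0 and other scalings, filters and left-out libraries. The deposited log2 CPM entered the limma-trend alternative. The deposited log2 values scaled to Rn7sk and 4 deposited columns of group values entered nothing. The Rn7sk alternative scaled the counts. Log2 CPM used a prior count of 2. Of the members, 5 lie on merged loci and 8 are overlapped by a locus with more counts.

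The members and lists were chosen with earlier results of these data known. All members are named; every library is given for the 10 with the smallest p and for those whose groups do not overlap, and, chosen after their values were seen, for Hmgcs1, Sqle, Hsd17b7, Dhcr7 and Insig1. Of each other list the called genes, or the 3 with the smallest p, are given with values. A gene counted in those lists is not reported here by itself.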

Additional observations from a re-analysis of the deposited data

How the results depend on the processing

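In the alternatives run with edgeR and limma, 0 of 27 members had an adjusted p under 0.05. With DESeq2 1 of 27 did (Pmvk, adjusted p 0.016). At an unadjusted edgeR p under 0.05 there were 1 of 27 members in the main fit, against 22.2% of all tested loci. Without WT library 1 and KO library 3 there were 8 of 27, and the share of all loci in that fit was not counted. The count of loci called, 393 in the main fit, was 674 scaled to total counts, 711 scaled to Rn7sk, 16 without WT library 1 and KO library 3, 2626 with DESeq2, 975 with limma-trend, 1503 with voom, and 15 to 644 when 1 library was left out (20 without WT library 3, 15 without KO library 1, 22 without KO library 2, 37 without KO library 3, 644 without WT library 2). The members' median log2 fold change, -0.03, was 0.19 with total counts, 0.18 with Rn7sk and 0.19 with limma-trend, while the median of all loci moved to 0.22, 0.19 and 0.22, so that relative to all loci it was -0.03, -0.01 and -0.03. It was -0.21 to 0.04 when 1 library was left out.

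A sign turned for 19 members in some alternative and for 8 in none (Pmvk, Idi1, Sqle, Msmo1, Sc5d, Srebf2, Abca1 and Abcg1). In 3 settings (total counts, Rn7sk and limma-trend) the median of all loci moved past 0.1. Outside those 3 a sign turned for 16 members, and for these the cause was not tested. With a minimum of 10 CPM in 3 libraries genes whose sign held also moved upward. Examples are Armc5 from -2.9 to -2.83, Nceh1 from -0.66 to -0.59 and Srebf2 from -0.23 to -0.16. With total counts the log2 fold changes that turned were Acat2 0.17, Hmgcs1 0.04, Mvk 0.11, Mvd 0.05, Ggps1 0.21, Lss 0.19, Cyp51 0.24, Nsdhl 0.24, Ebp 0.000141, Dhcr7 0.10, Scap 0.21, Insig2 0.09 and Acat1 0.02. With Rn7sk they were Acat2 0.18, Hmgcs1 0.02, Mvk 0.09, Mvd 0.05, Ggps1 0.18, Lss 0.18, Cyp51 0.24, Nsdhl 0.22, Dhcr7 0.10, Scap 0.19, Insig1 0.00284 and Insig2 0.07. With a minimum of 10 CPM in 3 libraries they were Acat2 0.02, Ggps1 0.05, Lss 0.04, Cyp51 0.07, Nsdhl 0.07 and Scap 0.06, and Pmvk and Mvd had no value. With no filter Nsdhl was 0.00219. With limma-trend they were Acat2 0.08, Hmgcs1 0.05, Mvk 0.10, Mvd 0.01, Ggps1 0.21, Lss 0.19, Cyp51 0.22, Nsdhl 0.20, Dhcr7 0.18, Scap 0.21, Insig2 0.08 and Acat1 0.01. With voom they were Fdps -0.05, Ggps1 0.01, Lss 0.12, Cyp51 0.06 and Dhcr7 0.27. Without WT library 1 and KO library 3 they were Ggps1 0.01 and Dhcr7 0.23.

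When 1 library was left out, log2 fold changes ran from -0.52 to 0.14 for Acat2, -0.39 to 0.02 for Hmgcs1, -0.38 to 0.03 for Mvd, -0.14 to 0.10 for Fdps, -0.08 to 0.04 for Ggps1, -0.05 to 0.38 for Fdft1, -0.16 to 0.08 for Lss, -0.28 to 0.26 for Cyp51, -0.04 to 0.16 for Tm7sf2, -0.22 to 0.10 for Nsdhl, -0.06 to 0.81 for Hsd17b7, -0.41 to 0.29 for Dhcr7, -0.05 to 0.02 for Scap, -0.79 to 0.000819 for Insig1, -0.03 to 0.42 for Stard4 and -0.55 to 0.0016 for Mylip.

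Same-numbered WT and KO libraries did not deviate together (correlations -0.0857, 0.0118 and -0.142). Deviations from a mean of 3 libraries constrain one another, so these correlations cannot decide whether same-numbered samples were paired. The labels give no pairing. With the replicate block 5 loci and 0 members were called. Limits: 3 libraries a group leave intervals past 1 log2 unit for 8 members, and counts of merged or overlapping loci are not of 1 gene.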
